A study of Mus musculus with 29 samples.

Results

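Dextran sulphate sodium (DSS) and 2,4-dinitrobenzene sulphonic acid (DNBS) are chemicals that induce colitis in mice by different routes, and the transcriptomes they leave in the colon were set directly against each other in 3 mice given DSS and 3 mice given DNBS, 6 of the 29 mice in the series. The mice were chosen by their labels alone, as DSS mice 5, 6 and 8 and DNBS mice 11, 14 and 16, and every gene was compared. The same 3 untreated wild-type mice, numbered 1, 2 and 4, served both models as controls, so a difference from control in 1 model is not independent of that in the other. DSS is a sulphated polysaccharide taken up with the drinking water that damages the epithelium and lets luminal bacteria reach the tissue beneath it. DNBS is a hapten delivered into the rectum in ethanol, which opens the mucosal barrier so that the hapten can bind to tissue proteins and draw T cells to them. Colitis in either model brings neutrophils and monocytes into the mucosa, called by chemokines of the CXC and CC families that epithelium, stroma and leukocytes release.

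The labels give the strain of all 9 mice as Balb/C. DSS was supplied at 3% in the drinking water for 5 days, followed by plain water until a cull that the labels place on day 10, at recovery. DNBS was given rectally under isoflurane as 200 μl holding 3 mg in 50% ethanol, and those mice were culled on day 3. Labels and published methods differ on the length of the DSS course, the day of the DSS cull and the strain of the DSS mice, and neither states an age for the 9 mice used here. The controls received neither ethanol nor anaesthetic, so the agent, its route, its vehicle and the time from first dose to cull cannot be told apart in any difference between the models. Transcripts of H2-Ea-ps, which are absent from some mouse strains, reached at most 1 count in each of the 9 mice and stood at 784 to 1462 counts in the Rag2_control mice of the series, which are also labelled Balb/C. They stood at 787 to 1011 counts in the Rag1_control mice, labelled C57BL/6. Of the other mice labelled as that strain, the T-cell transfer mice held 0 counts and the anti-CD40 mice 2262 to 2512. The mice labelled Balb/C and treated with IL10 antibodies held at most 1 count. Ifi202b transcripts split the groups in the same way, with at most 4 counts in each of the 9 mice. They stood at 39 to 50 counts in the Rag2_control mice and 24 to 44 in the Rag1_control mice. The T-cell transfer mice held 0 counts, the anti-CD40 mice 248 to 361 and the IL10 antibody mice at most 1. Neither transcript thus followed the strain on the labels. The strain of the 9 mice cannot be settled by them, and the DSS and DNBS mice did not separate by them.

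Whole colon segments were sequenced as poly(A) RNA, and the deposited counts per gene summed to 11778016 to 14977094 in the 6 treated mice and 11519242 to 13524777 in the controls. Levels are given as CPM, the count of a gene scaled to library size with edgeR's TMM factors, always in the order 5, 6, 8 for DSS, 11, 14, 16 for DNBS and 1, 2, 4 for control. A count of 3 in 1 library corresponded to 0.179 to 0.256 CPM in the treated mice. Fold changes are on the log2 scale as DSS minus DNBS, with the standard error (SE), and a gene passed the test when edgeR's quasi-likelihood test gave a Benjamini-Hochberg adjusted p below 0.05 over 18616 genes. In whole tissue, fewer cells of a type and less RNA per cell cannot be told apart. DSS 8 stood apart from the other treated mice, with a first principal component of -129.7 against -41.2 and -39.2 in DSS 5 and DSS 6, so counts are also given without it.

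The models differed at 4207 genes, 22.6% of those tested. Of these, 2114 genes (11.4%) were higher in DSS and 2093 (11.2%) were higher in DNBS, and the median log2 fold change over all genes was 0.003. Every DSS mouse lay above every DNBS mouse at 1734 of the genes higher in DSS, and every DNBS mouse lay above every DSS mouse at 1855 of the genes higher in DNBS. Without regard to the test, the 2 groups of 3 mice did not overlap at 31.6% of all genes. Large differences were mostly rises in DSS, where 1348 genes differed by at least 2-fold, compared with 631 in the opposite direction. Against control, 6336 genes (34%) passed the test in DSS and 1148 (6.17%) in DNBS, of which 736 (3.95% of all genes) were higher and 412 (2.21%) lower than control. Of the genes that changed in DNBS, 64.1% were higher than control, but the share was 51% when libraries were scaled by their upper quartile.

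These counts rested on the spread that edgeR estimated over all 29 mice and on DSS 8. A fit of the 6 mice alone called 2 genes higher in DSS and 4 higher in DNBS, and a fit of the 6 mice with the controls called 895 and 872. DESeq2 on the 6 mice called 1120 and 821. Without DSS 8 the counts were 677 and 927, of which 665 and 892 were also called with all mice. Of the 171 genes followed individually, 106 passed the test with and without DSS 8 and 62 passed only with it.

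**Figure D1:**
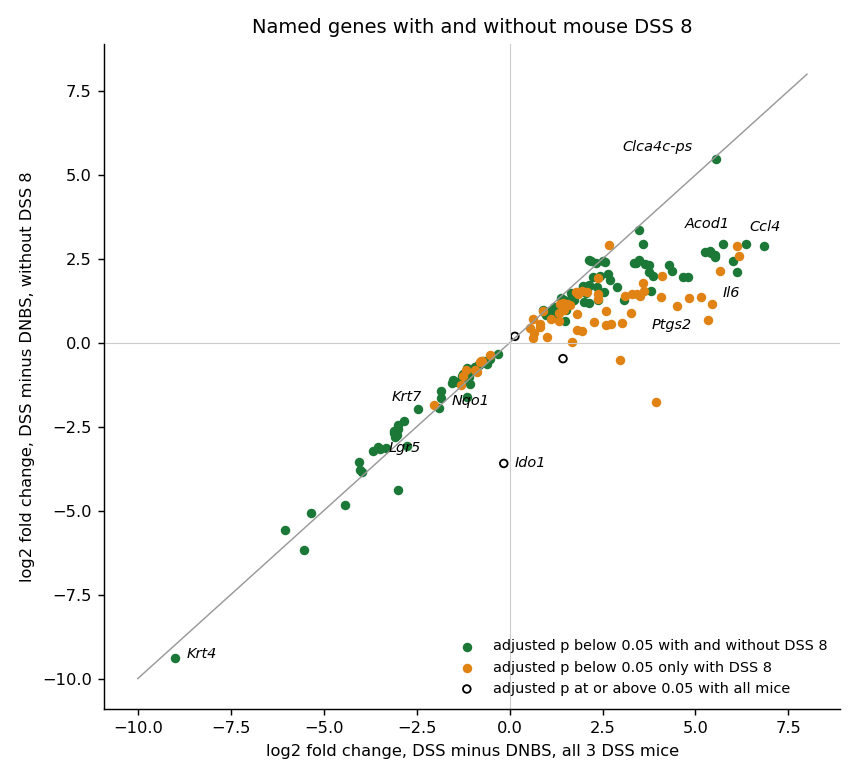
Log2 fold change between DSS and DNBS for the 171 genes followed individually, with all 3 DSS mice (x axis) and without mouse DSS 8 (y axis), with the line of equal values. Genes higher in DNBS, such as Lgr5 and Krt7, lay close to the line, whereas most of the largest rises in DSS lay below it, and 62 of the 171 genes (orange) passed the test only with DSS 8.

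Most neutrophil and macrophage markers were higher in DSS, and most fatty acid oxidation genes were higher in DNBS. Leaving out DSS 8 cut the neutrophil markers that passed from 16 to 7, and the fatty acid oxidation genes from 11 to 10.

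**Figure D2:**
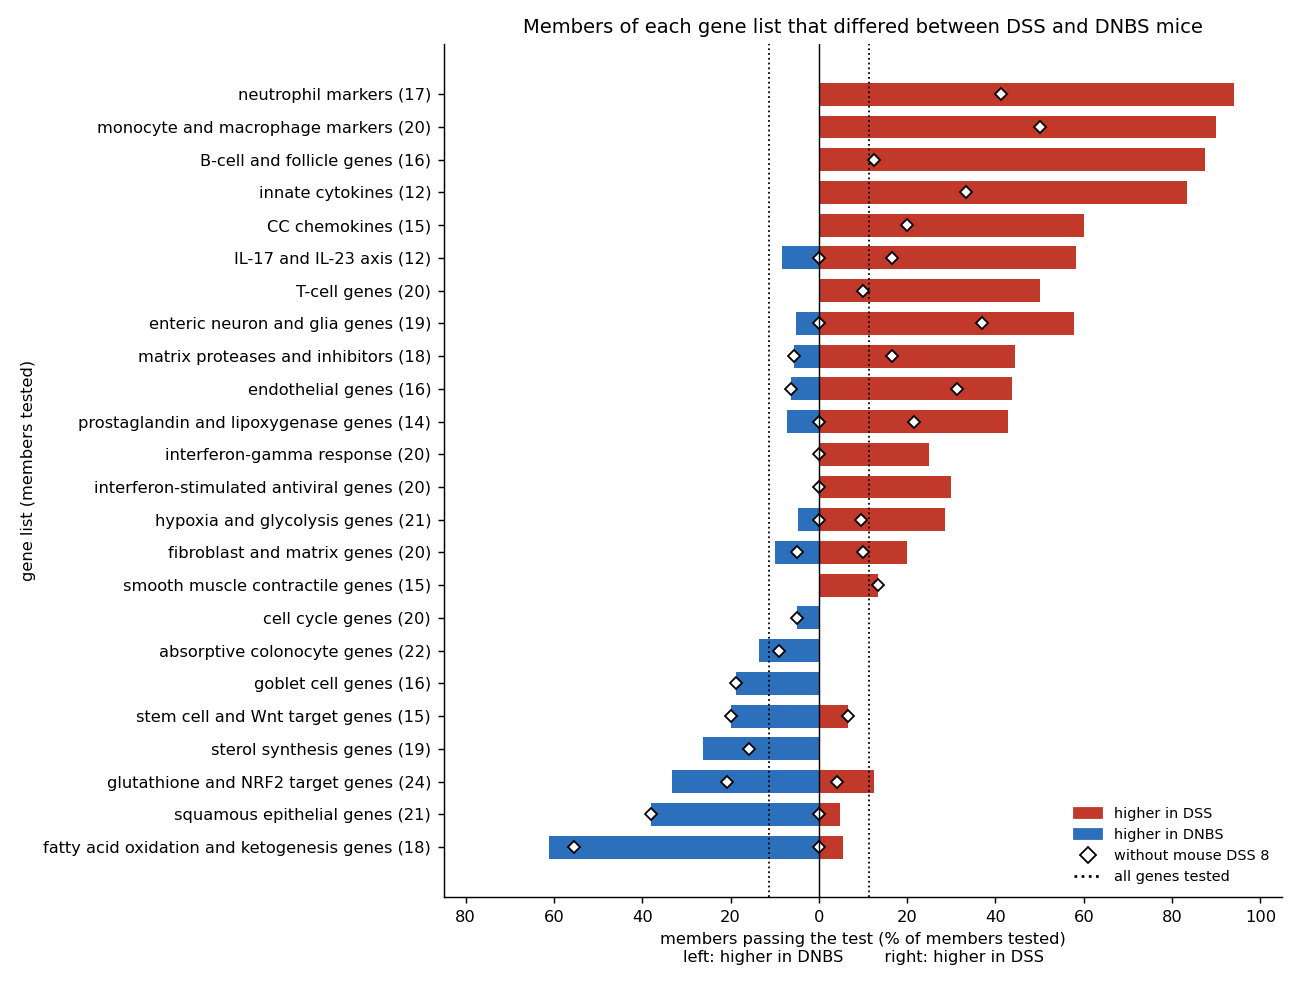
Share of the tested members of each gene list plotted (number tested in brackets) that passed the test as higher in DSS (red, to the right) or higher in DNBS (blue, to the left). Diamonds give the share without mouse DSS 8. Dotted lines give the share over all genes with all mice, 11.4% and 11.2%, and do not apply to the diamonds. Without DSS 8, 677 and 927 of 18616 genes passed. Neutrophil markers (16 of 17) and macrophage markers (18 of 20) reached furthest to the right among the lists plotted, and fatty acid oxidation genes (11 of 18) furthest to the left.

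Neutrophil chemokines separated the models in both directions. Cxcl1, Cxcl2, Cxcl3 and Cxcl5, ligands of the neutrophil receptor CXCR2, were higher in every DSS mouse than in every DNBS mouse, whereas Ppbp, the platelet member of the same family, was higher in DNBS. Cxcl5 was the most abundant, at 181, 105 and 237 CPM in the DSS mice, 27.4, 30.6 and 53.7 CPM in the DNBS mice and 2.74, 3.2 and 3.2 CPM in the controls (log2 fold change 2.23, SE 0.58, adjusted p = 0.00794). Cxcl1 stood at 17.4, 10.1 and 53.7 CPM in the DSS mice, 0.717, 1.47 and 6.06 CPM in the DNBS mice and 0.305, 0.0666 and 0.164 CPM in the controls (log2 fold change 3.35, SE 0.64, adjusted p = 0.00108). Cxcl2 stood at 27.1, 38.2 and 562 CPM in DSS and 1.19, 8.84 and 5.03 CPM in DNBS (log2 fold change 5.40, SE 0.89, adjusted p = 0.000374), and Cxcl3 at 7.43, 8.41 and 71.6 CPM in DSS and 1.37, 2.25 and 2.47 CPM in DNBS (log2 fold change 3.85, SE 0.82, adjusted p = 0.00334). All 4 were highest in DSS 8, and without it the log2 fold changes were 1.95 for Cxcl5 (adjusted p = 0.0465), 2.38 for Cxcl1 (adjusted p = 0.0154), 2.72 for Cxcl2 (adjusted p = 0.00495) and 1.98 for Cxcl3 (adjusted p = 0.0487). Ppbp stood at 0.126, 0.137 and 0.4 CPM in the DSS mice, 26.5, 3.49 and 0.171 CPM in the DNBS mice and 0.381, 0.466 and 0.246 CPM in the controls (log2 fold change -5.52, SE 1.01, adjusted p = 0.000769). Its level was high in DNBS 11, intermediate in DNBS 14 and within the range of the other groups in DNBS 16, so the groups overlapped. Without DNBS 11 the difference was -3.07 for Ppbp (adjusted p = 0.0113).

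These chemokine genes lie together on chromosome 5 of the GRCm38 build, within 90759360 to 90905938, and RefSeq promoters (250 bases before the start to 50 after it, GRCm38.p6) were found for 4 of the 5. The promoter of Cxcl5, which was also higher in DSS, was missing and was not searched. The promoters of Cxcl1, Cxcl2 and Cxcl3, which were higher in DSS together, were compared on the strand of the gene, and 2 stretches of at least 11 letters occurred in all 3. The longer, CTCCAGACTCCAG, lay after the start of each gene and was held, on either strand, by 4 of the 32851 promoters of the table (0.0122%). The shorter, GGGAATTTCCC, lay before the start, was held by 14 promoters (0.0426%) and contains letters of the kind that NF-kB proteins are known to bind. Ppbp held neither on either strand. The surroundings of the shorter stretch are shown with its letters in capitals, for chr5:90891149-90891209, chr5:90903777-90903837 and chr5:90786003-90786063, all on the plus strand, with its last letter 61, 87 and 63 bases before the start. A match of letters is a description and not a site of binding.
Cxcl1: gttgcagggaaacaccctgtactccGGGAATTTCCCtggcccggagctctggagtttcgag
Cxcl2: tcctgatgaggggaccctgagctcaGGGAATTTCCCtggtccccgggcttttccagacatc
Cxcl3: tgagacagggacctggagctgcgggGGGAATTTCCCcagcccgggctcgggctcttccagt

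Neutrophil transcripts themselves were also higher in DSS. Of 17 neutrophil markers tested, 16 were higher in DSS, none was higher in DNBS, and their median log2 fold change was 3.76 against 0.003 over all genes. S100a8, a subunit of the calcium-binding protein calprotectin, stood at 67.7, 122 and 504 CPM in the DSS mice, 4.9, 32.3 and 18.8 CPM in the DNBS mice and 0.305, 0.133 and 0.164 CPM in the controls (log2 fold change 3.64, SE 0.73, adjusted p = 0.00142). Clec4e, which encodes the phagocyte receptor Mincle, stood at 8.12, 25.2 and 312 CPM in DSS and 0.955, 4.19 and 1.36 CPM in DNBS (log2 fold change 5.75, SE 0.96, adjusted p = 0.00041). Trem1, an amplifying receptor of neutrophils and monocytes, stood at 5.41, 14.6 and 122 CPM in DSS and 1.02, 3.57 and 2.3 CPM in DNBS (log2 fold change 4.38, SE 0.80, adjusted p = 0.000746). Every DSS mouse exceeded every DNBS mouse at these 3 genes, with DSS 8 several times above DSS 5 and DSS 6. Cxcr2, the receptor for the chemokines above, stood at 7.8, 11.1 and 74.6 CPM in DSS and 2.51, 4.96 and 3.41 CPM in DNBS (log2 fold change 3.10, SE 0.75, adjusted p = 0.00702). Ngp, a granule protein of immature neutrophils, stood at 1.13, 2.8 and 63.7 CPM in DSS and 0.299, 0.931 and 0.0853 CPM in DNBS (log2 fold change 5.65, SE 1.19, adjusted p = 0.00232). Without DSS 8, 7 of the 17 markers passed the test, and 3 passed without DSS 8 and DNBS 11. The differences without DSS 8 were 2.36 for S100a8 (adjusted p = 0.0243), 2.96 for Clec4e (adjusted p = 0.00538), 2.14 for Trem1 (adjusted p = 0.0197), 1.38 for Cxcr2 (adjusted p = 0.131) and 2.14 for Ngp (adjusted p = 0.119).

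Innate cytokines were higher in DSS at 10 of 12 genes tested, with a median log2 fold change of 4.13. Il1b, the main secreted interleukin-1, stood at 48.4, 84.2 and 1291 CPM in the DSS mice, 9.49, 18.4 and 23.1 CPM in the DNBS mice and 1.6, 0.733 and 1.72 CPM in the controls (log2 fold change 4.81, SE 0.86, adjusted p = 0.000669). Il1a stood at 4.78, 9.98 and 343 CPM in DSS and 0.955, 2.64 and 1.62 CPM in DNBS (log2 fold change 6.11, SE 1.02, adjusted p = 0.00041). Osm encodes oncostatin M, a cytokine that acts on stromal cells, and stood at 4.72, 8 and 98.4 CPM in DSS and 0.597, 1.63 and 0.682 CPM in DNBS (log2 fold change 5.25, SE 0.87, adjusted p = 0.000374). Every DSS mouse lay above every DNBS mouse at Il1a and Osm, and DSS 8 was far above DSS 5 and DSS 6 at all 3 genes. Il6, an inducer of the acute phase, stood at 0.755, 0.82 and 45.2 CPM in DSS and 0.119, 0.31 and 0.682 CPM in DNBS (log2 fold change 5.43, SE 1.19, adjusted p = 0.00265), and Csf3, which drives neutrophil production, at 0.629, 1.57 and 37.4 CPM in DSS and 0, 0.388 and 0.171 CPM in DNBS (log2 fold change 6.16, SE 1.25, adjusted p = 0.00176). DSS 8 held nearly all of both, and neither passed without it. Tnf stood at 22, 15.9 and 187 CPM in DSS and 2.39, 5.12 and 13.6 CPM in DNBS (log2 fold change 3.44, SE 0.75, adjusted p = 0.00252). Without DSS 8, 4 of 12 passed, with differences of 1.97 for Il1b (adjusted p = 0.0173), 2.10 for Il1a (adjusted p = 0.00517), 2.72 for Osm (adjusted p = 0.00486), 1.46 for Tnf (adjusted p = 0.106), 1.15 for Il6 (adjusted p = 0.416) and 2.59 for Csf3 (adjusted p = 0.0737).

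Genes of the prostaglandin pathway, which makes lipid mediators from arachidonic acid, were higher in DSS at 6 of 14 tested, 3 without DSS 8, and 1, Hpgd, was higher in DNBS. Ptgs2, the inducible cyclooxygenase, stood at 21.8, 23.2 and 668 CPM in the DSS mice, 8.66, 9.54 and 13.3 CPM in the DNBS mice and 11.4, 7.66 and 8.37 CPM in the controls (log2 fold change 4.50, SE 0.84, adjusted p = 0.000882). Ptges, which makes prostaglandin E2, stood at 25, 29.1 and 90.3 CPM in DSS and 17.4, 18.2 and 15.9 CPM in DNBS (log2 fold change 1.48, SE 0.31, adjusted p = 0.00195). Hpgd, which degrades it, stood at 54.8, 94.3 and 26.5 CPM in the DSS mice, 164, 120.0 and 109 CPM in the DNBS mice and 237, 219 and 212 CPM in the controls (log2 fold change -1.16, SE 0.30, adjusted p = 0.00872). Every DSS mouse lay above every DNBS mouse at both synthases and below at Hpgd. In the absence of DSS 8 the differences were 1.10 for Ptgs2 (adjusted p = 0.0629), 0.66 for Ptges (adjusted p = 0.0426) and -0.81 for Hpgd (adjusted p = 0.0644). Acod1, which makes itaconate in activated macrophages, showed the second largest rise among the genes named by size, at 14, 52.1 and 993 CPM in the DSS mice, 1.31, 3.96 and 7.93 CPM in the DNBS mice and 0.229, 0.533 and 1.07 CPM in the controls (log2 fold change 6.37, SE 1.04, adjusted p = 0.000365), and kept its call without DSS 8 (2.94 for Acod1 with adjusted p = 0.00407).

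The cytokines of the IL-17 and IL-23 axis, which connect lymphocytes to epithelial defence, were higher in DSS at 7 of 12 genes, and 2 passed without DSS 8. The lymphocyte cytokines rested on that mouse. Il17a stood at 0.252, 0.0684 and 13.1 CPM in DSS and 0, 0 and 0.341 CPM in DNBS (log2 fold change 5.34, SE 1.41, adjusted p = 0.0116), and Il22, which signals to epithelium, at 1.89, 0.684 and 50.6 CPM in DSS and 0, 0 and 1.62 CPM in DNBS (log2 fold change 5.14, SE 1.26, adjusted p = 0.00686). Neither passed the test without DSS 8 (0.67 for Il17a with adjusted p = 0.747, 1.38 for Il22 with adjusted p = 0.379). Il17c, the member of the family made by epithelium, did not rest on that mouse. It stood at 1.83, 0.82 and 1.76 CPM in the DSS mice, 0.119, 0.0775 and 0.171 CPM in the DNBS mice and 0.305, 0.333 and 0.328 CPM in the controls (log2 fold change 3.49, SE 0.68, adjusted p = 0.00114), so that all DSS mice were above all DNBS mice, and the difference without DSS 8 was 3.35 for Il17c (adjusted p = 0.00744).

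A list of 17 genes taken as regulated by IL-22 in the study was higher in DSS at 13, with 6 passing without DSS 8 and 1 without DSS 8 and DNBS 11. The list held only part of the transcripts that the study names as raised by IL-22, so its count does not stand for that set. Among those left out was Mmp7, which passed as higher in DNBS, as given below. Of the genes given here, the paper's text names Nos2 and Socs3 but not Pla2g2a or Duox2. Pla2g2a, a secreted bactericidal phospholipase, stood at 86.2, 56.1 and 36.8 CPM in the DSS mice, 1.67, 16.1 and 21.9 CPM in the DNBS mice and 0.762, 0.799 and 0.902 CPM in the controls (log2 fold change 2.19, SE 0.51, adjusted p = 0.00392), and its difference without DSS 8 was 2.45 for Pla2g2a (adjusted p = 0.0067). Duox2, an oxidase of the apical surface, stood at 379.8, 570.4 and 987 CPM in DSS and 137, 278 and 358 CPM in DNBS (log2 fold change 1.33, SE 0.30, adjusted p = 0.00352). Socs3, a feedback inhibitor of STAT3, stood at 186, 227 and 694 CPM in DSS and 20.1, 26.3 and 123 CPM in DNBS (log2 fold change 2.71, SE 0.60, adjusted p = 0.00294). Nos2, the inducible nitric oxide synthase, stood at 158, 69.4 and 1251 CPM in DSS and 3.28, 31.2 and 95.1 CPM in DNBS (log2 fold change 3.52, SE 0.86, adjusted p = 0.00543), with DNBS 16 above DSS 6, so the groups overlapped. With DSS 8 left out, the differences were 0.88 for Duox2 (adjusted p = 0.0582), 1.87 for Socs3 (adjusted p = 0.0418) and 1.41 for Nos2 (adjusted p = 0.198). The acute-phase gene Saa1 is not on that list and was among the 5 most abundant genes higher in DSS whose groups did not overlap, at 1221, 1336 and 1435 CPM in the DSS mice, 469, 362 and 688 CPM in the DNBS mice and 670.3, 668 and 717 CPM in the controls (log2 fold change 1.39, SE 0.27, adjusted p = 0.00122), with nearly equal levels in the 3 DSS mice (1.34 for Saa1 with adjusted p = 0.00796 without DSS 8).

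Macrophage transcripts were higher in DSS in all 3 mice at the genes given here. Of 20 monocyte and macrophage markers, 18 were higher in DSS with all mice and 10 without DSS 8. C1qa, a complement subunit made by resident macrophages, stood at 212, 213 and 342 CPM in the DSS mice, 134, 109.7 and 119 CPM in the DNBS mice and 80.1, 99.3 and 83.8 CPM in the controls (log2 fold change 1.08, SE 0.18, adjusted p = 0.00041). Fcgr3, an activating Fc receptor, stood at 65.1, 68 and 256 CPM in DSS and 29.4, 26.1 and 32.8 CPM in DNBS (log2 fold change 2.14, SE 0.33, adjusted p = 0.000234). Ms4a7, a macrophage membrane protein, stood at 36.3, 39.6 and 51.2 CPM in DSS and 14.9, 13.6 and 12 CPM in DNBS (log2 fold change 1.65, SE 0.23, adjusted p = 0.000117). The DSS mice differed from each other by less than 2-fold at C1qa and Ms4a7 and all lay above the DNBS mice. Without DSS 8 the differences were 0.82 for C1qa (adjusted p = 0.00495), 1.18 for Fcgr3 (adjusted p = 0.000512) and 1.49 for Ms4a7 (adjusted p = 0.000959). Ccr2, the receptor of inflammatory monocytes, stood at 59.3, 77.3 and 189.5 CPM in the DSS mice, 42.9, 43.7 and 43.4 CPM in the DNBS mice and 13.3, 13.6 and 11.8 CPM in the controls (log2 fold change 1.32, SE 0.30, adjusted p = 0.00331), with 0.65 for Ccr2 (adjusted p = 0.0796) without DSS 8. Apoe, which macrophages also make, was the fifth most abundant of the genes higher in DSS whose groups did not overlap, at 1126, 1222 and 1557 CPM in the DSS mice, 632, 773 and 434 CPM in the DNBS mice and 542, 582 and 599 CPM in the controls (log2 fold change 1.09, SE 0.23, adjusted p = 0.00192).

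CC chemokines, which attract monocytes, eosinophils and lymphocytes, were higher in DSS at 9 of 15 tested, and 3 passed without DSS 8. Ccl4, an attractant of monocytes and T cells, showed the largest rise among genes named by size, at 2.45, 5.95 and 187 CPM in the DSS mice, 0, 1.24 and 0.512 CPM in the DNBS mice and 0.0762, 0.0666 and 0.082 CPM in the controls (log2 fold change 6.85, SE 1.17, adjusted p = 0.00049). Its neighbour Ccl3 stood at 3.27, 7.38 and 179 CPM in DSS and 0.179, 2.4 and 0.426 CPM in DNBS (log2 fold change 6.00, SE 1.06, adjusted p = 0.000604). Both rose mainly in DSS 8, and without it the differences were 2.89 for Ccl4 (adjusted p = 0.0112) and 2.43 for Ccl3 (adjusted p = 0.0207). Ccl8, a monocyte attractant, stood at 68, 49.1 and 161 CPM in the DSS mice, 5.67, 3.02 and 14.5 CPM in the DNBS mice and 1.98, 3.33 and 1.97 CPM in the controls (log2 fold change 3.60, SE 0.46, adjusted p = 7.18e-05), and Ccl11, the eosinophil attractant eotaxin, at 20.2, 23.6 and 62.1 CPM in the DSS mice, 5.97, 7.29 and 7.51 CPM in the DNBS mice and 5.64, 6.39 and 4.35 CPM in the controls (log2 fold change 2.35, SE 0.42, adjusted p = 0.00063). These 2 genes were well separated in all mice, at 2.94 for Ccl8 (adjusted p = 0.000312) and 1.66 for Ccl11 (adjusted p = 0.00851) without DSS 8. Ccl2 stood at 10.4, 9.16 and 112 CPM in DSS and 5.79, 6.13 and 8.02 CPM in DNBS (log2 fold change 2.72, SE 0.63, adjusted p = 0.00401) and did not pass without DSS 8 (0.57 for Ccl2 with adjusted p = 0.377).

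Among the remaining genes named by the size of their rise were Tarm1, a receptor of myeloid cells, at 2.64, 4.92 and 77.6 CPM in DSS and 0.179, 0.698 and 1.02 CPM in DNBS (log2 fold change 5.53, SE 0.93, adjusted p = 0.000436). F10, which encodes coagulation factor X, stood at 5.98, 10.1 and 144 CPM in DSS and 0.657, 1.55 and 1.62 CPM in DNBS (log2 fold change 5.41, SE 0.85, adjusted p = 0.000249). Il1f9, an IL-36 cytokine, stood at 1.83, 6.63 and 89.6 CPM in DSS and 0.657, 0.775 and 0.682 CPM in DNBS (log2 fold change 5.51, SE 1.04, adjusted p = 0.00123). All 3 were highest in DSS 8 and passed without it (2.62 for Tarm1 with adjusted p = 0.00639, 2.68 for F10 with adjusted p = 0.00129, 2.57 for Il1f9 with adjusted p = 0.0174). Prok2, a chemotactic peptide of myeloid cells, stood at 0.818, 1.5 and 30.7 CPM in DSS and 0, 0.465 and 0 CPM in DNBS (log2 fold change 6.12, SE 1.32, adjusted p = 0.00355) and did not pass without DSS 8 (2.89 for Prok2 with adjusted p = 0.0679). At all but 1 of the 15 largest rises, DSS 8 was at least 12.3-fold above the next DSS mouse. The exception was Clca4c-ps, a pseudogene beside the calcium-activated chloride channel regulators Clca4a and Clca4b on chromosome 3 (144861826 to 144896011), at 28.3, 23 and 29.6 CPM in the DSS mice, 0.358, 0.31 and 1.11 CPM in the DNBS mice and 0.229, 0.0666 and 0.164 CPM in the controls (log2 fold change 5.55, SE 1.01, adjusted p = 0.000769). It passed under every alternative run, with 5.48 for Clca4c-ps (adjusted p = 0.00285) without DSS 8. Its count is uncertain because near-identical members of the family may share its reads. Clca4b stood at 2004, 2149 and 3405 CPM in the DSS mice, 303, 261 and 1636 CPM in the DNBS mice and 4.57, 4.33 and 3.2 CPM in the controls (log2 fold change 1.78, SE 0.64, adjusted p = 0.0455), with DNBS 16 between the DSS mice and the other DNBS mice, and its difference ranged over 1.37 to 3.16 when 1 mouse was left out, without passing the test when DSS 6, DSS 8, DNBS 11 or DNBS 14 was left out.

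**Figure D3:**
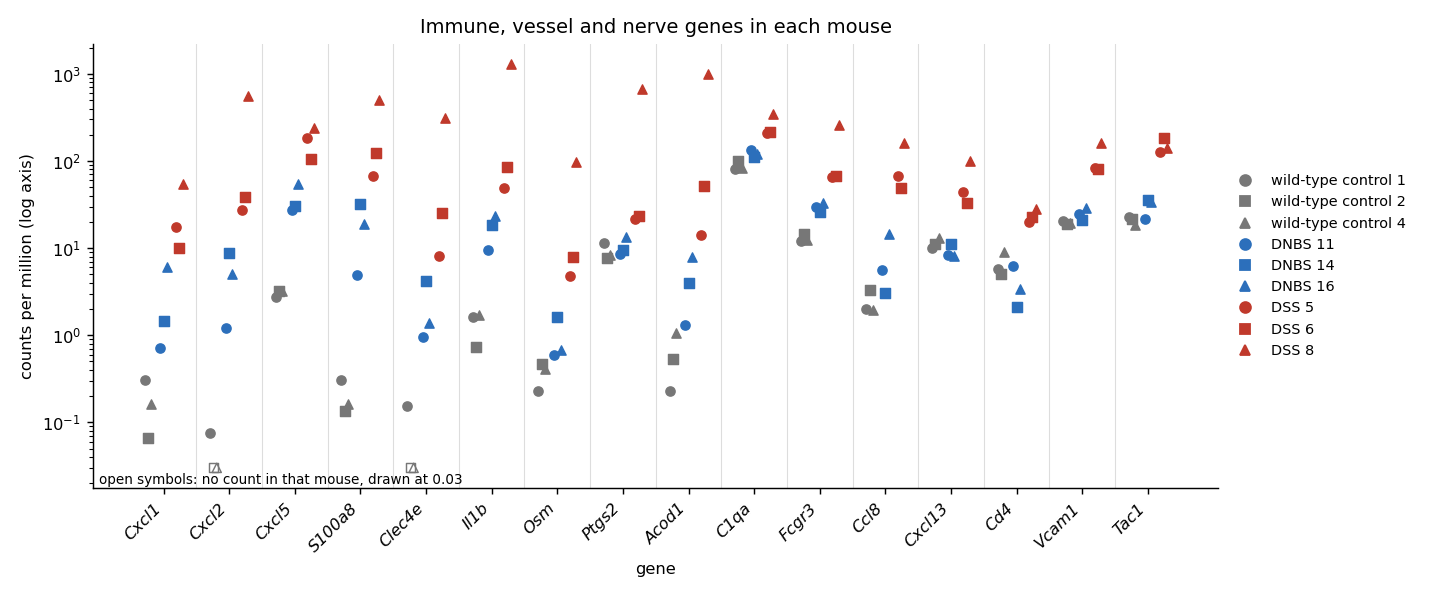
CPM on a log axis of 16 immune, vessel and nerve genes in each control (grey), DNBS (blue) and DSS (red) mouse, with 1 symbol for each mouse of a group. The DSS mice lie above the DNBS mice at every gene shown, and DSS 8 (red triangle) lies far above DSS 5 and DSS 6 at Il1b, Ptgs2 and Acod1 but close to them at C1qa, Cd4 and Tac1.

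Interferon-responsive genes depended on single mice in both groups. Of 20 genes of the interferon-γ response, 5 were higher in DSS, and of 20 antiviral interferon-stimulated genes, 6 were. Without DSS 8 none of either list passed, whereas without DNBS 16 20 of 20 and 20 of 20 passed. Gbp2, a guanylate-binding protein induced by interferon-γ, stood at 295, 161 and 2111 CPM in the DSS mice, 71.7, 52.8 and 824 CPM in the DNBS mice and 35.4, 31.9 and 32.6 CPM in the controls (log2 fold change 1.44, adjusted p = 0.222), and the difference without DNBS 16 was 3.78 for Gbp2 (adjusted p = 0.00431). Ido1, which degrades tryptophan, stood at 17.9, 2.53 and 315 CPM in the DSS mice, 3.58, 3.49 and 367 CPM in the DNBS mice and 0.686, 0.799 and 0.984 CPM in the controls (log2 fold change -0.16, adjusted p = 0.949). DSS 8 and DNBS 16 were thus the high mice of their groups, and the DSS and DNBS mice overlapped at both genes. Ifng itself stood at 0.441, 0.137 and 47.5 CPM in DSS and 0.119, 0 and 3.16 CPM in DNBS (log2 fold change 3.94, SE 1.30, adjusted p = 0.0317). Cxcl10, a T-cell attractant, stood at 21, 9.64 and 482 CPM in DSS and 7.05, 4.11 and 55.1 CPM in DNBS (log2 fold change 2.96, SE 0.94, adjusted p = 0.0257). Without DSS 8 both changed sign, at -1.77 for Ifng (adjusted p = 0.351) and -0.51 for Cxcl10 (adjusted p = 0.688). Oas2, which senses double-stranded RNA, was the 1 antiviral gene with no overlap, at 18.8, 15.5 and 75 CPM in DSS and 3.16, 2.95 and 15 CPM in DNBS (log2 fold change 2.39, SE 0.66, adjusted p = 0.0121), and 1.31 for Oas2 (adjusted p = 0.19) without DSS 8. Ifng, Cxcl10 and Oas2 also lost their call without DNBS 11 (3.35 for Ifng with adjusted p = 0.105, 2.53 for Cxcl10 with adjusted p = 0.0935, 2.02 for Oas2 with adjusted p = 0.0574) and without DNBS 14 (3.35 for Ifng with adjusted p = 0.109, 2.47 for Cxcl10 with adjusted p = 0.101, 2.02 for Oas2 with adjusted p = 0.0637).

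Lymphoid transcripts were higher in DSS. Of 16 B-cell and follicle genes, 14 passed the test, although only 2 did without DSS 8 and 5 without DNBS 14. Ms4a1, which encodes CD20, stood at 37.4, 18.6 and 55.5 CPM in the DSS mice, 10.4, 5.04 and 13.3 CPM in the DNBS mice and 12, 11.4 and 16.8 CPM in the controls (log2 fold change 1.95, SE 0.51, adjusted p = 0.00826). Cxcl13, the chemokine that organises B-cell follicles, stood at 43.6, 33.1 and 98.7 CPM in the DSS mice, 8.3, 11.2 and 8.19 CPM in the DNBS mice and 9.98, 11.3 and 13 CPM in the controls (log2 fold change 2.66, SE 0.41, adjusted p = 0.000231). Both were lower in every DNBS mouse than in every DSS mouse, and without DSS 8 the differences were 1.55 for Ms4a1 (adjusted p = 0.0672) and 2.05 for Cxcl13 (adjusted p = 0.00222). Colon segments can hold lymphoid follicles, and the number of follicles in each segment was not recorded in the labels. Of 20 T-cell genes, 10 were higher in DSS, 2 without DSS 8 and 16 without DNBS 16. Cd4, the coreceptor of helper T cells that macrophages can also express, stood at 19.8, 22.6 and 27.8 CPM in the DSS mice, 6.21, 2.09 and 3.41 CPM in the DNBS mice and 5.79, 5.06 and 9.1 CPM in the controls (log2 fold change 2.56, SE 0.40, adjusted p = 0.000249) and at 2.41 for Cd4 (adjusted p = 0.00163) without DSS 8. Ctla4, an inhibitory receptor of regulatory and activated T cells, stood at 3.21, 1.85 and 15.9 CPM in DSS and 0.179, 0.233 and 1.19 CPM in DNBS (log2 fold change 3.75, SE 0.74, adjusted p = 0.00128), with 2.31 for Ctla4 (adjusted p = 0.0262) without DSS 8.

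Genes of the vessel wall that capture leukocytes were among the best separated. Of 16 endothelial genes, 7 were higher in DSS, 5 without DSS 8, and 1 was higher in DNBS. Vcam1, an adhesion molecule for monocytes and lymphocytes, stood at 83.1, 81.9 and 159.9 CPM in the DSS mice, 24.7, 21.1 and 28.7 CPM in the DNBS mice and 20.3, 19.1 and 19.3 CPM in the controls (log2 fold change 2.12, SE 0.24, adjusted p = 3.75e-05). Madcam1, the gut address for lymphocytes bearing integrin α4β7, stood at 12.5, 11.8 and 21 CPM in the DSS mice, 3.7, 3.33 and 4.52 CPM in the DNBS mice and 2.67, 3.06 and 2.54 CPM in the controls (log2 fold change 1.97, SE 0.34, adjusted p = 0.000495). Selp, which encodes P-selectin, stood at 8.5, 18.7 and 29.1 CPM in DSS and 2.27, 3.49 and 4.69 CPM in DNBS (log2 fold change 2.44, SE 0.36, adjusted p = 0.000184). Vcam1 and Madcam1 in DNBS stayed near control, whereas every DSS mouse was raised. Ackr1, a chemokine receptor of venules, stood at 10.3, 15.2 and 21.3 CPM in DSS and 4.48, 2.64 and 4.69 CPM in DNBS (log2 fold change 1.98, SE 0.27, adjusted p = 8.01e-05), and Lyve1, a marker of lymphatic vessels and some macrophages, at 83.1, 102 and 118 CPM in DSS and 48.9, 47.8 and 34.6 CPM in DNBS (log2 fold change 1.21, SE 0.23, adjusted p = 0.000921). Leaving out DSS 8, the differences were 1.73 for Vcam1 (adjusted p = 6.56e-05), 1.66 for Madcam1 (adjusted p = 0.00486), 1.98 for Selp (adjusted p = 0.00163), 1.69 for Ackr1 (adjusted p = 0.000623) and 1.08 for Lyve1 (adjusted p = 0.00864). General endothelial genes such as Pecam1 did not pass the test between the models.

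Transcripts of blood and fat moved with these groups. Of 5 erythrocyte genes tested, 5 were higher in DSS, 3 without DSS 8 and 2 without DNBS 16, with a summed level of 45.9 to 136 CPM in DSS, 7.25 to 28.1 CPM in DNBS and 23 to 27.4 CPM in control. Of 9 adipose genes, 5 were higher in DSS, 3 without DSS 8, 1 without DSS 6 and none without DNBS 14, with a summed level of 100.03 to 153 CPM in DSS, 35.7 to 54.8 CPM in DNBS and 55.3 to 97.1 CPM in control. Both sums were higher in each DSS mouse than in each DNBS mouse. The part of blood, attached fat or lymphoid tissue in the vessel and lymphocyte differences was not tested.

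Enteric nerve genes were higher in DSS at 11 of 19 tested, at 7 without DSS 8 and at 7 without DNBS 16. The neuregulin receptor gene Erbb3 was higher in DNBS (log2 fold change -0.78, SE 0.27, adjusted p = 0.0382), with -0.54 for Erbb3 (adjusted p = 0.226) without DSS 8 and no call without DSS 5, DNBS 11 or DNBS 14. Tac1, which encodes the neuropeptide substance P, stood at 128, 183 and 139 CPM in the DSS mice, 21.9, 35.3 and 33.5 CPM in the DNBS mice and 22.9, 21.6 and 18.2 CPM in the controls (log2 fold change 2.31, SE 0.44, adjusted p = 0.00104). It rose in all DSS mice and was near control in DNBS. Elavl4, an RNA-binding protein of neurons, stood at 7.93, 10.8 and 13.6 CPM in the DSS mice, 3.94, 4.81 and 2.81 CPM in the DNBS mice and 6.33, 5.39 and 5.5 CPM in the controls (log2 fold change 1.48, SE 0.30, adjusted p = 0.00164). Gfap, an intermediate filament of glia, stood at 21.7, 31.9 and 55.9 CPM in DSS and 7.23, 7.83 and 9.64 CPM in DNBS (log2 fold change 2.15, SE 0.46, adjusted p = 0.00226). The groups did not overlap at any of these 3 genes, and without DSS 8 the differences were 2.37 for Tac1 (adjusted p = 0.00422), 1.27 for Elavl4 (adjusted p = 0.0159) and 1.70 for Gfap (adjusted p = 0.0253). Of 15 smooth muscle genes, 2 were higher in DSS, 4 without DNBS 11 and 0 without DNBS 16, with the sum of the list at 6823 to 15406 CPM in DSS, 5066 to 9228 CPM in DNBS and 8624 to 10559 CPM in control. Over all genes 11.4% were higher in DSS, so the 2 with all mice were near the general share. Whether the depth of the wall in each segment moved with the nerve genes was not tested.

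Tph1, the enzyme that makes serotonin in enterochromaffin cells, stood at 22.2, 32.3 and 87.4 CPM in the DSS mice, 12.8, 6.28 and 16.5 CPM in the DNBS mice and 14.5, 15.3 and 23 CPM in the controls (log2 fold change 1.99, SE 0.39, adjusted p = 0.00131), with 1.20 for Tph1 (adjusted p = 0.0267) without DSS 8. It was 1 of 3 enteroendocrine genes of 14 that were higher in DSS, with 1 without DSS 8 and 5 without DNBS 14. Hdc, which makes histamine, stood at 7.3, 22.7 and 260.0 CPM in the DSS mice, 1.49, 4.27 and 5.89 CPM in the DNBS mice and 0.305, 0.4 and 0.246 CPM in the controls (log2 fold change 4.66, SE 0.85, adjusted p = 0.00077), with 1.97 for Hdc (adjusted p = 0.0247) without DSS 8. It was 1 of 8 mast cell genes tested, and no other passed with all mice, but 4 passed without DNBS 11. Over all genes 11.4% were higher in DSS, so 1 of 8 was near the general share.

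Epithelial genes differed in both directions. Of 14 epithelial antimicrobial and oxidase genes, 6 were higher in DSS and 1 in DNBS, with 2 and 1 without DSS 8. A stem cell marker and a secretory regulator were lower in DSS than in DNBS, although most genes of either kind did not pass. Lgr5, the receptor that marks crypt base stem cells (chromosome 10, 115450311 to 115587780), stood at 3.71, 0.273 and 0.32 CPM in the DSS mice, 15.9, 21.5 and 14.9 CPM in the DNBS mice and 11.4, 13.5 and 11.9 CPM in the controls (log2 fold change -3.54, SE 0.56, adjusted p = 0.000267). It fell against control in DSS (log2 fold change -3.04, SE 0.56, adjusted p = 0.000244), and DNBS did not pass the test against control (log2 fold change 0.50, SE 0.48, adjusted p = 0.544). Of 15 stem cell and Wnt target genes, 3 were higher in DNBS (3 without DSS 8 and 5 without DSS 5) and 1, the Wnt inhibitor Nkd1, was higher in DSS (log2 fold change 0.94, SE 0.26, adjusted p = 0.0119) but not without DNBS 16 (0.80 for Nkd1 with adjusted p = 0.0568). Smoc2, another gene of the crypt base, stood at 25, 17.4 and 45.3 CPM in the DSS mice, 48.4, 90.6 and 54.7 CPM in the DNBS mice and 37.6, 38.5 and 38.8 CPM in the controls (log2 fold change -1.15, SE 0.30, adjusted p = 0.00854), and the difference without DNBS 14 was -0.83 for Smoc2 (adjusted p = 0.0702). Slc12a2, a chloride transporter of the crypt, stood at 271, 206 and 167 CPM in DSS and 328, 459 and 345 CPM in DNBS (log2 fold change -0.82, SE 0.19, adjusted p = 0.00339). Axin2, a general Wnt target, stood at 21.5, 16.5 and 15.4 CPM in DSS and 24.2, 24 and 23.3 CPM in DNBS and did not pass (adjusted p = 0.093). Of 20 cell cycle genes, 1 was higher in DNBS with all mice and 8 were without DSS 5, while none was higher in DSS with all mice.

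Of the goblet cell genes, the mucin itself did not differ detectably. Of 16 tested, 3 were higher in DNBS (against 11.2% over all genes), with 3 without DSS 8 and 5 without DSS 6, and none was higher in DSS with all mice. Atoh1, the transcription factor that commits cells to secretory lineages, stood at 19.8, 26.7 and 11 CPM in the DSS mice, 51, 68.6 and 35.6 CPM in the DNBS mice and 38.3, 35.9 and 47.7 CPM in the controls (log2 fold change -1.43, SE 0.28, adjusted p = 0.00118). Agr2, which folds mucin in the endoplasmic reticulum, stood at 298, 411 and 162 CPM in the DSS mice, 494, 792 and 810.4 CPM in the DNBS mice and 487, 423 and 447 CPM in the controls (log2 fold change -1.27, SE 0.23, adjusted p = 0.000662). Spink4 stood at 170.4, 181 and 111 CPM in DSS and 204, 375 and 239 CPM in DNBS (log2 fold change -0.82, SE 0.19, adjusted p = 0.00373). All DSS mice were below all DNBS mice at these 3. Muc2, the gel-forming mucin itself, stood at 868, 1386 and 1012 CPM in the DSS mice, 722, 1269 and 968 CPM in the DNBS mice and 753, 724 and 719 CPM in the controls and did not pass (log2 fold change 0.14, adjusted p = 0.739). Muc13, a mucin of the cell surface, was the most abundant of the genes higher in DSS whose groups did not overlap, at 2697, 3391 and 2523 CPM in the DSS mice, 1803, 1324 and 2484 CPM in the DNBS mice and 2051, 2233 and 2233 CPM in the controls (log2 fold change 0.62, SE 0.21, adjusted p = 0.0363), with DNBS 16 just below the lowest DSS mouse and no call when DSS 6, DSS 8, DNBS 11 or DNBS 14 was left out (0.41 to 0.88).

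Absorptive colonocyte genes mostly did not pass, with 3 of 22 higher in DNBS, 2 without DSS 8, and none higher in DSS with all mice. Over all genes 11.2% were higher in DNBS, so the 3 with all mice were near the general share. Guca2b, which encodes uroguanylin, stood at 6.42, 4.44 and 0.4 CPM in the DSS mice, 24, 36.9 and 22.1 CPM in the DNBS mice and 12.2, 12.3 and 12.2 CPM in the controls (log2 fold change -2.85, SE 0.53, adjusted p = 0.000875). Slc16a1, the transporter that takes up butyrate, stood at 141, 154 and 130.5 CPM in the DSS mice, 362, 249 and 289 CPM in the DNBS mice and 449, 439 and 455 CPM in the controls (log2 fold change -1.08, SE 0.15, adjusted p = 9.37e-05). It fell against control in both models, with log2 fold change -1.66, SE 0.15, adjusted p = 2.54e-07 in DSS and log2 fold change -0.58, SE 0.15, adjusted p = 0.0234 in DNBS. In the absence of DSS 8 the differences were -2.34 for Guca2b (adjusted p = 0.00475) and -1.02 for Slc16a1 (adjusted p = 0.00112). Structural genes of the epithelium were higher in DNBS by less. Krt8, a keratin of simple epithelium and the most abundant gene of this direction whose groups did not overlap, stood at 2150.3, 2688 and 1648 CPM in the DSS mice, 3238, 3199.8 and 4115 CPM in the DNBS mice and 3132, 2995 and 3581 CPM in the controls (log2 fold change -0.70, SE 0.15, adjusted p = 0.00179), and its partner Krt19 at 1369, 1594 and 824 CPM in the DSS mice, 2182, 2345 and 2755 CPM in the DNBS mice and 1952, 1900.5 and 2348 CPM in the controls (log2 fold change -0.94, SE 0.17, adjusted p = 0.000604). Lgals4, a galectin of the brush border, stood at 1847, 2230.1 and 1390.3 CPM in DSS and 2336, 2734 and 2855 CPM in DNBS (log2 fold change -0.54, SE 0.14, adjusted p = 0.00744), with -0.37 for Lgals4 (adjusted p = 0.0737) without DSS 8. The part of these general epithelial transcripts in the other epithelial differences was not tested.

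Fatty acid oxidation, the main fuel pathway of the colonocyte, was mostly higher in DNBS. Of 18 genes, 11 were higher in DNBS, 10 without DSS 8, and the median log2 fold change was -0.59. Against control, 14 of the 18 were lower and 1 was higher in DSS, with a median log2 fold change of -0.51. In DNBS 0 were higher and 0 lower than control, with a median of 0.003. Cpt1a, which admits fatty acids to mitochondria, stood at 139, 169 and 103 CPM in the DSS mice, 257, 313 and 250.4 CPM in the DNBS mice and 207, 213 and 250.2 CPM in the controls (log2 fold change -0.995, SE 0.21, adjusted p = 0.00184). Acadm, the medium-chain dehydrogenase, stood at 96.5, 103 and 58.9 CPM in the DSS mice, 189, 162 and 142 CPM in the DNBS mice and 191, 199.9 and 205 CPM in the controls (log2 fold change -0.93, SE 0.16, adjusted p = 0.000502). Hadh, a later step of the same cycle, stood at 141, 127 and 38.3 CPM in DSS and 239.8, 238 and 203 CPM in DNBS (log2 fold change -1.15, SE 0.26, adjusted p = 0.00326). Ppara, a nuclear receptor that induces this pathway, stood at 2.14, 1.78 and 1.36 CPM in DSS and 3.94, 4.27 and 3.75 CPM in DNBS (log2 fold change -1.17, SE 0.28, adjusted p = 0.00517). The groups did not overlap at these 4 genes. With DSS 8 left out, the differences were -0.83 for Cpt1a (adjusted p = 0.0227), -0.72 for Acadm (adjusted p = 0.0036), -0.76 for Hadh (adjusted p = 0.00368) and -1.02 for Ppara (adjusted p = 0.0433). The exception was Acadl, the long-chain dehydrogenase, at 261, 271 and 337 CPM in the DSS mice, 162, 184 and 244 CPM in the DNBS mice and 139, 143 and 164 CPM in the controls (log2 fold change 0.56, SE 0.15, adjusted p = 0.00994), which did not pass without DSS 8 (0.44 for Acadl with adjusted p = 0.087) or without DNBS 11 (0.43 for Acadl with adjusted p = 0.0604).

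Some genes of glucose use were higher in DSS. Hk2, the hexokinase that starts glycolysis, stood at 532, 491 and 1059.7 CPM in the DSS mice, 111, 127 and 394 CPM in the DNBS mice and 136, 165 and 181 CPM in the controls (log2 fold change 1.72, SE 0.36, adjusted p = 0.00207), and Pfkfb3, which raises glycolytic flux, at 94.5, 73.4 and 422 CPM in the DSS mice, 15.1, 20.9 and 43.6 CPM in the DNBS mice and 16.4, 12.8 and 11.6 CPM in the controls (log2 fold change 2.89, SE 0.58, adjusted p = 0.00141). Without DSS 8 these were 1.28 for Hk2 (adjusted p = 0.0292) and 1.67 for Pfkfb3 (adjusted p = 0.0321). The enzymes further down did not pass, as for Ldha and Pgk1, and 6 of 21 hypoxia and glycolysis genes were higher in DSS, 2 without DSS 8 and 3 without DNBS 11. Sterol synthesis genes were higher in DNBS at 5 of 19. Dhcr7, the last enzyme of cholesterol synthesis, stood at 70.1, 82.1 and 29.5 CPM in the DSS mice, 159, 136 and 139 CPM in the DNBS mice and 138, 120.5 and 167 CPM in the controls (log2 fold change -1.25, SE 0.24, adjusted p = 0.00104). Without DSS 8, 3 of the 19 passed, with -0.93 for Dhcr7 (adjusted p = 0.00468).

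Glutathione and NRF2 target genes, which detoxify electrophiles and oxidants, passed more often as higher in DNBS than as higher in DSS. Of 24 tested, 8 were higher in DNBS and 3 in DSS, with 5 and 1 without DSS 8 and 8 and 1 without DNBS 11. Over all genes 11.2% were higher in DNBS and 11.4% in DSS, so the 3 in DSS were near the general share. Nqo1, a quinone reductase and classical NRF2 target (chromosome 8, 107388225 to 107403206), stood at 14.1, 7.38 and 6.56 CPM in the DSS mice, 44.7, 29.9 and 26.1 CPM in the DNBS mice and 14.3, 17.8 and 16.1 CPM in the controls (log2 fold change -1.84, SE 0.28, adjusted p = 0.000231). It fell against control in DSS (log2 fold change -0.77, SE 0.28, adjusted p = 0.0372) and rose in DNBS (log2 fold change 1.07, SE 0.28, adjusted p = 0.0249). Gsta4, a glutathione transferase for products of lipid peroxidation, stood at 36.2, 25.2 and 41.5 CPM in the DSS mice, 81.2, 81 and 52.9 CPM in the DNBS mice and 37, 38.2 and 45.1 CPM in the controls (log2 fold change -1.06, SE 0.24, adjusted p = 0.00316). Gstm3 stood at 11.3, 5.33 and 0.96 CPM in the DSS mice, 37.2, 36.1 and 24.5 CPM in the DNBS mice and 29, 32.6 and 32.5 CPM in the controls (log2 fold change -2.46, SE 0.50, adjusted p = 0.0015). All 3 genes were higher in every DNBS mouse than in every DSS mouse, and every DNBS mouse exceeded every control at Nqo1 and Gsta4 but not at Gstm3. The genes higher in DSS were others. Slc7a11, which imports cystine for glutathione synthesis, stood at 12.7, 16.7 and 126 CPM in the DSS mice, 5.02, 5.97 and 7.42 CPM in the DNBS mice and 3.12, 3.6 and 4.68 CPM in the controls (log2 fold change 3.08, SE 0.56, adjusted p = 0.000747), and Hmox1, the inducible heme oxygenase, at 30.1, 39.5 and 119 CPM in the DSS mice, 29, 48.5 and 16 CPM in the DNBS mice and 5.11, 7.06 and 6.48 CPM in the controls (log2 fold change 1.01, SE 0.36, adjusted p = 0.0472). Without DSS 8 the differences were -1.64 for Nqo1 (adjusted p = 0.00254), -1.22 for Gsta4 (adjusted p = 0.00748), -1.97 for Gstm3 (adjusted p = 0.00665), 1.26 for Slc7a11 (adjusted p = 0.0137) and 0.16 for Hmox1 (adjusted p = 0.786). Hmox1 also did not pass without DNBS 11 (0.95 for Hmox1 with adjusted p = 0.113) or DNBS 16 (0.69 for Hmox1 with adjusted p = 0.201).

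**Figure D4:**
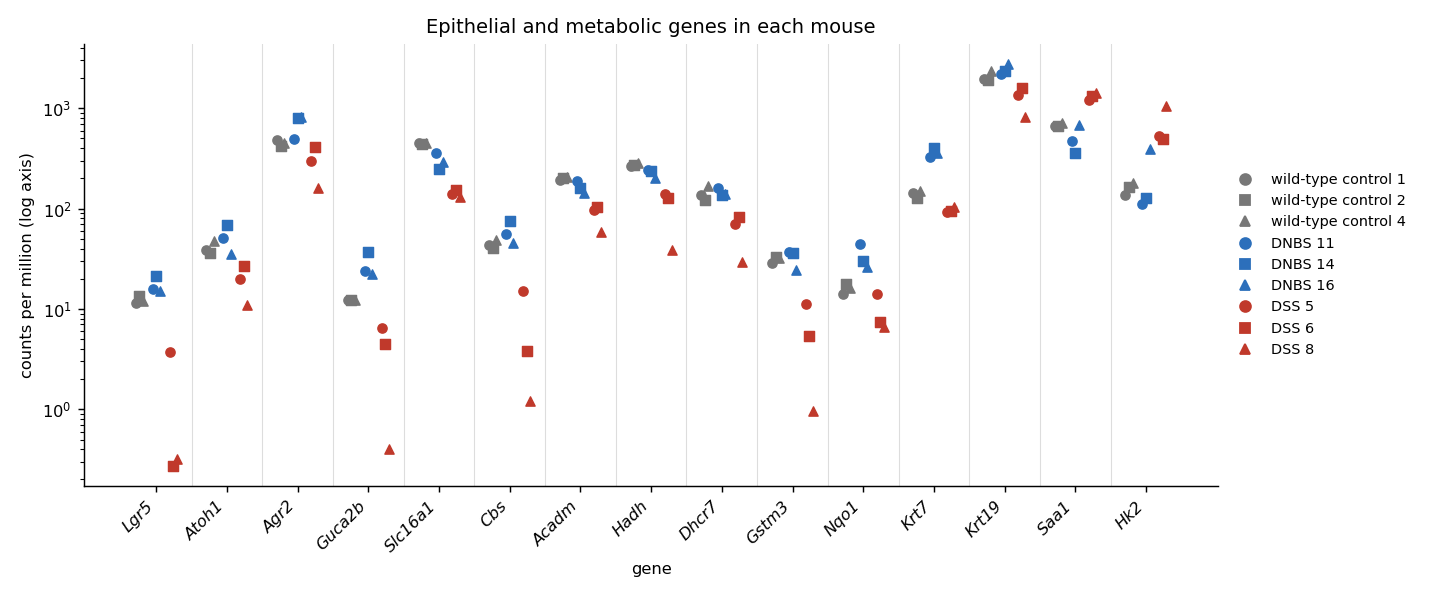
CPM on a log axis of 15 epithelial and metabolic genes in each control (grey), DNBS (blue) and DSS (red) mouse, with 1 symbol for each mouse of a group. From Lgr5 to Krt19 the DSS mice lie below the DNBS mice, and Saa1 and Hk2 show the opposite order. At some of the genes, including Lgr5, Agr2, Guca2b, Nqo1 and Krt7, the DNBS mice also lie above the controls.

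The largest falls named by size were mostly of other epithelial genes. Cbs, which channels homocysteine into cysteine, stood at 15, 3.83 and 1.2 CPM in the DSS mice, 55.9, 75.6 and 45.1 CPM in the DNBS mice and 43.2, 40.3 and 48.3 CPM in the controls (log2 fold change -3.11, SE 0.46, adjusted p = 0.000171). Fut9, a fucosyltransferase, stood at 7.74, 2.8 and 0.96 CPM in the DSS mice, 45.2, 26.9 and 30.4 CPM in the DNBS mice and 64.4, 54.1 and 49.1 CPM in the controls (log2 fold change -3.12, SE 0.62, adjusted p = 0.00139). Nxpe2 stood at 13.8, 11.6 and 5.84 CPM in the DSS mice, 123, 84.7 and 56.6 CPM in the DNBS mice and 85.6, 97.3 and 93.4 CPM in the controls (log2 fold change -3.07, SE 0.67, adjusted p = 0.00259). All 3 were lower in every DSS mouse than in every other mouse, with -2.64 for Cbs (adjusted p = 0.000512), -2.69 for Fut9 (adjusted p = 0.0128) and -2.79 for Nxpe2 (adjusted p = 0.0246) without DSS 8. Cyp2w1, a cytochrome P450, stood at 0.692, 0.205 and 0 CPM in DSS and 9.67, 3.64 and 2.81 CPM in DNBS (log2 fold change -4.05, SE 0.69, adjusted p = 0.000468), Vtcn1, a B7 family inhibitor of T cells, at 1.38, 0.547 and 0.4 CPM in DSS and 8.72, 5.66 and 5.29 CPM in DNBS (log2 fold change -3.03, SE 0.61, adjusted p = 0.00142), and Nccrp1 at 3.46, 4.72 and 0.72 CPM in DSS and 32.1, 14.4 and 26.1 CPM in DNBS (log2 fold change -3.001, SE 0.72, adjusted p = 0.00508). Lgals2, a galectin, stood at 1.45, 0.479 and 0.32 CPM in the DSS mice, 5.43, 13.3 and 7.59 CPM in the DNBS mice and 1.6, 2.06 and 1.72 CPM in the controls (log2 fold change -3.49, SE 0.73, adjusted p = 0.00197). Alb, the albumin gene, was lowly expressed and stood at 0.126, 0.273 and 0.08 CPM in the DSS mice, 5.14, 9.46 and 6.23 CPM in the DNBS mice and 1.07, 1.6 and 1.23 CPM in the controls (log2 fold change -5.33, SE 1.06, adjusted p = 0.00133). It passed under every alternative run, with -5.06 for Alb (adjusted p = 0.0134) without DSS 8. Klk15, a kallikrein protease, stood at 0.189, 0.137 and 0 CPM in the DSS mice, 20.4, 2.09 and 1.71 CPM in the DNBS mice and 5.72, 4.73 and 5.5 CPM in the controls (log2 fold change -6.03, SE 1.00, adjusted p = 0.000382), and the difference without DNBS 11 was -3.93 for Klk15 (adjusted p = 0.00339).

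Genes of the ileum and of position along the colon were also compared because segments can differ in site. Of 17 position genes, 3 were higher in DNBS (against 11.2% over all genes), 2 without DSS 8, and none in DSS. Their summed level was 331 to 729 CPM in DSS, 957 to 1203 CPM in DNBS and 1334 to 1675 CPM in control, so every DSS mouse lay below every DNBS mouse. Fabp6, an ileal bile acid binding protein, stood at 2.83, 2.19 and 0.4 CPM in the DSS mice, 6.51, 3.8 and 61 CPM in the DNBS mice and 5.18, 5.13 and 4.92 CPM in the controls (log2 fold change -3.67, SE 0.74, adjusted p = 0.00154), with DNBS 16 far above the rest. Without DNBS 16 its difference was -1.49 for Fabp6 (adjusted p = 0.0477). Cyp2c55 stood at 8.24, 51.8 and 1.52 CPM in the DSS mice, 263, 162 and 66.9 CPM in the DNBS mice and 394, 379 and 494 CPM in the controls (log2 fold change -2.996, SE 0.82, adjusted p = 0.0113), with -2.46 for Cyp2c55 (adjusted p = 0.0486) without DSS 8. Hoxd12, a homeobox gene, stood at 4.66, 5.47 and 3.2 CPM in the DSS mice, 21.5, 15.6 and 17.7 CPM in the DNBS mice and 16.7, 15.3 and 21.4 CPM in the controls (log2 fold change -2.03, SE 0.72, adjusted p = 0.043), and did not pass when any 1 of the 6 treated mice was left out (-2.21 to -1.85). The distal genes Hoxb13 and Hoxd13 did not pass, and Hoxb13 stood at 195, 245 and 87.2 CPM in DSS and 388, 356 and 393 CPM in DNBS (adjusted p = 0.318). The part of colon position in the epithelial differences was not tested. Hsd11b2, which inactivates corticosterone in the distal colon, stood at 108, 129 and 43.3 CPM in the DSS mice, 221, 344 and 254 CPM in the DNBS mice and 250.4, 248 and 341 CPM in the controls (log2 fold change -1.54, SE 0.31, adjusted p = 0.00131), and Dusp1, a phosphatase induced by glucocorticoids and stress, at 99.8, 94.2 and 429.8 CPM in the DSS mice, 30.4, 42.7 and 46.6 CPM in the DNBS mice and 36.6, 44.1 and 45.3 CPM in the controls (log2 fold change 2.38, SE 0.49, adjusted p = 0.00174). Without DSS 8 these were -1.20 for Hsd11b2 (adjusted p = 0.0101) and 1.29 for Dusp1 (adjusted p = 0.045).

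Squamous keratins, which are proper to the anal canal and oesophagus rather than to colon, were highest in 1 DNBS mouse at the genes given here. Of 21 squamous genes, 8 were higher in DNBS and 1 in DSS, with 2 and 3 without DNBS 11. Against control, 11 of the 21 were higher in DNBS and 5 in DSS, beside 3.95% and 17.7% of all genes. Krt13 stood at 2.71, 1.78 and 4.48 CPM in the DSS mice, 169, 11.2 and 10.8 CPM in the DNBS mice and 0.457, 0.333 and 0.574 CPM in the controls (log2 fold change -4.42, SE 0.82, adjusted p = 0.00079), and Krt14 at 4.91, 5.2 and 2.64 CPM in the DSS mice, 184, 15 and 11.3 CPM in the DNBS mice and 3.58, 4.93 and 3.03 CPM in the controls (log2 fold change -4.04, SE 0.82, adjusted p = 0.0016). Krt5 stood at 0.503, 1.03 and 0.56 CPM in the DSS mice, 31.8, 0.698 and 0.0853 CPM in the DNBS mice and 0.457, 0.466 and 0.164 CPM in the controls (log2 fold change -3.96, SE 0.98, adjusted p = 0.00607). Without DNBS 11 the differences were -1.89 for Krt13 (adjusted p = 0.0181), -1.63 for Krt14 (adjusted p = 0.0585) and 0.78 for Krt5 (adjusted p = 0.384). Krt4 had 2 counts in all in the DSS mice, 1426 in the DNBS mice and 4 in the controls, a ratio of DNBS to DSS of 726 (95% Clopper-Pearson interval 201 to 6003, counting error only), of which DNBS 11 held most, at 83, 2.48 and 0.341 CPM. Krt15 stood at 1.2, 0.342 and 0.48 CPM in DSS and 17.2, 1.55 and 1.71 CPM in DNBS (log2 fold change -3.32, SE 0.68, adjusted p = 0.0016), with -1.24 for Krt15 (adjusted p = 0.0644) without DNBS 11. DNBS 11 was also the mouse with the highest Ppbp. Whether squamous tissue of the anal margin was part of that segment was not tested.

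Krt7, a keratin of ductal and injured epithelium, was of another kind. It stood at 92, 94.6 and 103 CPM in the DSS mice, 328, 398 and 355 CPM in the DNBS mice and 142, 127 and 149.6 CPM in the controls (log2 fold change -1.90, SE 0.25, adjusted p = 7.20e-05), was raised in all 3 DNBS mice against control (log2 fold change 1.37, SE 0.24, adjusted p = 0.00265), and did not pass in DSS against control (log2 fold change -0.53, SE 0.24, adjusted p = 0.0896). It passed the test between the models under every alternative run, with -1.97 for Krt7 (adjusted p = 0.000195) without DNBS 11. Of 21 injury and fetal-like epithelial genes, 2 were higher in DNBS and 3 in DSS (against 11.2% and 11.4% over all genes), with 3 and 0 without DSS 8 and 3 and 6 without DNBS 16. The other gene higher in DNBS with all mice was Cldn2, a pore-forming claudin, at 169.7, 39.1 and 22.3 CPM in the DSS mice, 212, 171 and 287 CPM in the DNBS mice and 237, 246 and 237 CPM in the controls (log2 fold change -1.53, SE 0.40, adjusted p = 0.00867). Ereg, a growth factor of the EGF family, stood at 21.4, 28 and 185 CPM in the DSS mice, 10.7, 16.3 and 21.6 CPM in the DNBS mice and 5.49, 4.93 and 6.56 CPM in the controls (log2 fold change 2.27, SE 0.63, adjusted p = 0.0116) and did not pass without DSS 8 (0.61 for Ereg with adjusted p = 0.471). Ly6a and Anxa1, which mark epithelium under repair, did not pass.

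Most matrix proteases and inhibitors that passed were higher in DSS. Of 18 proteases and inhibitors, 8 were higher in DSS and 1 in DNBS, with 3 and 1 without DSS 8. Mmp3, the stromelysin of fibroblasts, stood at 59.2, 79 and 280.4 CPM in the DSS mice, 6.09, 13.7 and 18.1 CPM in the DNBS mice and 2.9, 4.53 and 3.2 CPM in the controls (log2 fold change 3.47, SE 0.64, adjusted p = 0.000769), and Mmp12, the macrophage elastase, at 6.92, 7.25 and 29.4 CPM in the DSS mice, 2.99, 2.71 and 1.62 CPM in the DNBS mice and 1.37, 0.932 and 1.97 CPM in the controls (log2 fold change 2.55, SE 0.46, adjusted p = 0.000706). Both separated the models in all mice, with 2.46 for Mmp3 (adjusted p = 0.0101) and 1.52 for Mmp12 (adjusted p = 0.0112) without DSS 8. Mmp7, the protease of injured epithelium, stood at 0.315, 0.0684 and 1.28 CPM in the DSS mice, 1.07, 6.28 and 5.71 CPM in the DNBS mice and 0, 0.0666 and 0 CPM in the controls (log2 fold change -3.01, SE 0.82, adjusted p = 0.0119), with -4.38 for Mmp7 (adjusted p = 0.0142) without DSS 8. Of 20 fibroblast and matrix genes, 4 were higher in DSS and 2 in DNBS (against 11.4% and 11.2% over all genes), with 2 and 1 without DSS 8, 3 and 0 without DNBS 14 and 2 and 6 without DNBS 16. Col1a1 stood at 179.9, 287 and 213 CPM in the DSS mice, 309.9, 1099 and 266 CPM in the DNBS mice and 165, 131 and 177 CPM in the controls (log2 fold change -1.30, SE 0.40, adjusted p = 0.0214), and the difference without DNBS 14 was -0.36 for Col1a1 (adjusted p = 0.47). It also lost its call without DSS 5 or DSS 8, with values of -1.64 to -0.36 when 1 mouse was left out. Pdpn, podoplanin of activated fibroblasts and lymphatic vessels, stood at 44.6, 60.5 and 92.8 CPM in the DSS mice, 28.2, 34.7 and 23.4 CPM in the DNBS mice and 16.2, 19.9 and 12.8 CPM in the controls (log2 fold change 1.20, SE 0.23, adjusted p = 0.00107), and Pdgfra, a receptor of mesenchymal cells, at 156, 154 and 205 CPM in the DSS mice, 101, 98.6 and 60.3 CPM in the DNBS mice and 90.2, 86.4 and 76.1 CPM in the controls (log2 fold change 0.99, SE 0.21, adjusted p = 0.0019). Without DSS 8 these were 0.87 for Pdpn (adjusted p = 0.0168) and 0.84 for Pdgfra (adjusted p = 0.0202).

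**Figure D5:**
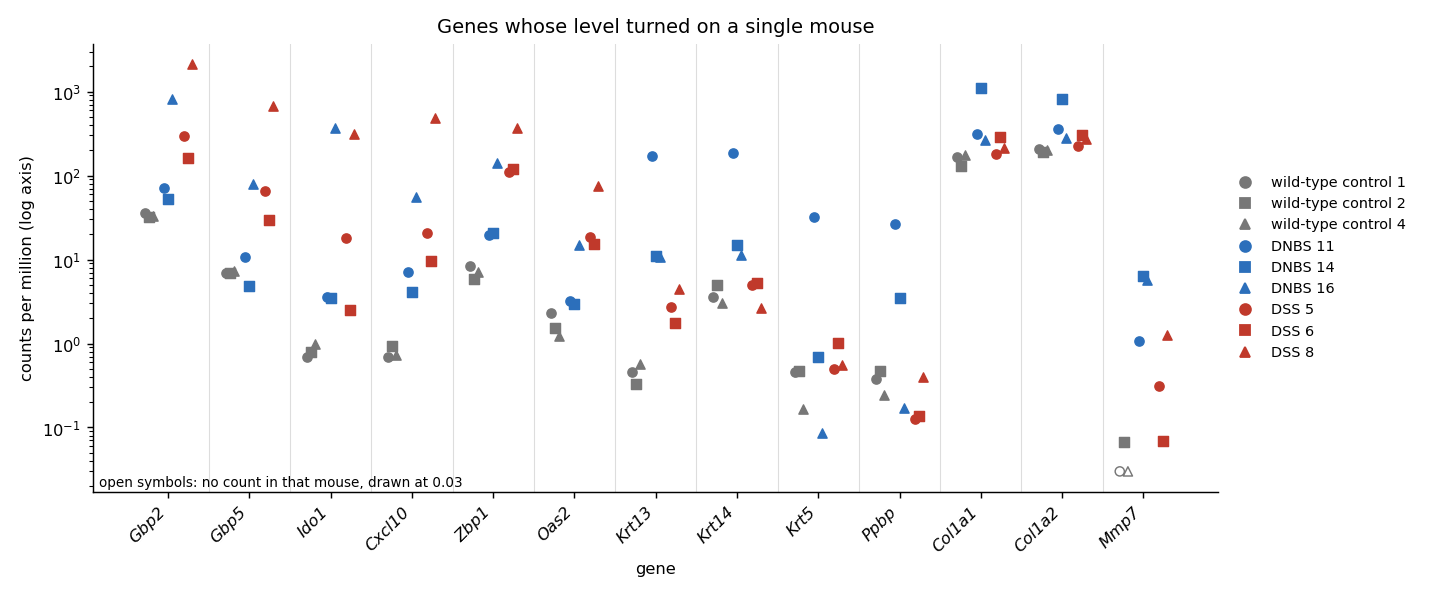
CPM on a log axis of 13 interferon, squamous, chemokine and matrix genes in each control (grey), DNBS (blue) and DSS (red) mouse, with 1 symbol for each mouse of a group. DSS 8 and DNBS 16 (triangles) are high at the interferon genes, DNBS 11 (blue circle) at Krt13, Krt14, Krt5 and Ppbp, and DNBS 14 (blue square) at Col1a1 and Col1a2.

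Abundant genes of protein synthesis and of the cytoskeleton were also among those named by abundance. Eef2, an elongation factor, stood at 1923, 1622 and 1850.1 CPM in the DSS mice, 2626, 3059 and 2537 CPM in the DNBS mice and 2289, 2661 and 2762 CPM in the controls (log2 fold change -0.61, SE 0.11, adjusted p = 0.00055), with -0.63 for Eef2 (adjusted p = 0.0027) without DSS 8. Eef1a1 stood at 3000.4, 2542 and 2989 CPM in the DSS mice, 3195, 3705 and 3639 CPM in the DNBS mice and 3196, 3214 and 3289 CPM in the controls (log2 fold change -0.30, SE 0.09, adjusted p = 0.0211), a small difference that did not pass when DSS 6, DNBS 14 or DNBS 16 was left out (-0.37 to -0.23). Flna, the actin crosslinker filamin A, was higher in DSS at 1845, 2508 and 1801 CPM in the DSS mice, 1444, 1023 and 836 CPM in the DNBS mice and 1395, 1454 and 1285 CPM in the controls (log2 fold change 0.90, SE 0.25, adjusted p = 0.0112), and did not pass when DSS 6 or DNBS 16 was left out (0.72 to 1.14). Among further lists, pancreas genes had no member that passed, and plasma cell, MHC class II, type 2 and tuft cell genes had 4 of 14, 2 of 10, 4 of 14 and 4 of 11 members higher in DSS and none higher in DNBS. Without DSS 8 these counts were 2, 0, 3 and 3. The plasma cell count was 2 without DNBS 11, and the MHC class II count was 5 without DSS 6, 0 without DNBS 14 and 9 without DNBS 16.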

How the data were processed

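Poly(A) RNA from colon was sequenced in 29 mice of 9 groups, and the deposited values were raw counts per gene, which the authors made from paired-end reads. The submitters' processing notes name Trimmomatic, HISAT2, HTSeq and the GRCm38 build, and versions are not given in the sources used here. Counts were fitted with edgeR 4.0.16 in R 4.3.3, using TMM scaling, 1 term for each of the 9 groups and the quasi-likelihood test, over 18616 genes whose count averaged 3 or more across the mice, and the Benjamini-Hochberg adjusted p was read at 0.05. The SE of a log2 fold change was its size divided by the square root of the test's F. Library totals of about the same size limit precision for genes near the floor of 3 counts, and such floors and intervals cover counting error only. The labels number the mice but do not say more on their origin, so p-values measure the spread between these mice. The test was checked on simulated data.

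Genes were named by size as the 15 largest differences in each direction among genes that passed, whose DSS and DNBS mice did not overlap and whose mean was at least 5 CPM in the higher group, together with the 5 most abundant of these in each direction. Variable segments of lymphocyte receptors and predicted genes were passed over. Members of the 45 gene lists, and the other genes given, were chosen with earlier results of these data known. Alternatives were RLE and upper quartile scaling, no filter or filterByExpr, fits of fewer groups, DESeq2 1.42.0, a threshold of 0.01 and each mouse left out in turn. Leaving out DSS 8 and DNBS 11 together was chosen after seeing the data. Promoter sequences were read from RefSeq for GRCm38.p6. Figures were drawn with matplotlib 3.10.9.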

Additional observations from a re-analysis of the deposited data

Results flagged for a closer look

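Nqo1, the quinone reductase, drew attention because DSS and DNBS moved it in opposite directions from the same controls, each passing edgeR's test. The difference between the models was -1.84 on the log2 scale, DSS minus DNBS. Passing the test between the models was also a condition for the flag, so this difference is not a separate test. The fall in DSS was near the threshold of edgeR's test (adjusted p = 0.0372), with DSS 5 at 14.1 CPM and control 1 at 14.3 CPM. The level of Nqo1 in 3 of 3 DSS mice was lower than in every DNBS mouse. Both comparisons share the controls.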

How the results depend on the processing

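Both directions of the comparison between the models kept their number of calls within 1.5 times under RLE scaling, scaling by upper quartiles, filterByExpr and a fit without any filter. Genes higher and lower in DSS numbered 895 and 872 in a fit with the controls alone, 2 and 4 in a fit of the 6 mice alone, 1120 and 821 by DESeq2, 962 and 999 at an adjusted p of 0.01, and 645 and 914 without DSS 8 and DNBS 11. Leaving out 1 mouse gave 677 to 2370 and 927 to 2251, both lowest without DSS 8. For DSS against control the count was 3869 at an adjusted p of 0.01, 4005 without DSS 8 and DNBS 11, and 3841 to 6284 with 1 mouse left out, lowest without DSS 8. For DNBS against control it was 26 in the fit of the 3 groups, 628 in the fit of 2, 1881 by DESeq2, 221 at an adjusted p of 0.01, 3128 without DSS 8 and DNBS 11, and 195 to 2346 with 1 mouse left out, lowest without control 1 and highest without DNBS 11. The cause was not tested.

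Among 171 genes, 1989 of the values under the alternatives kept direction and side of the threshold, 558 fell short of it, 1 passed it newly and 14 changed sign. Those that changed sign were Il17a (-0.012 without DSS 8 and DNBS 11), Gbp2 (-0.47 without DSS 8 and -0.95 without both), Ifng (-1.77 and -2.37), Cxcl10 (-0.51 and -0.95), Ido1, Muc2 and Krt5 (0.89 without both). Over the fits with 1 mouse left out, the values ran from -0.47 to 3.78 for Gbp2, -3.59 to 4.97 for Ido1, -1.77 to 7.70 for Ifng, -0.51 to 4.92 for Cxcl10, -0.071 to 0.35 for Muc2 and -4.53 to 0.78 for Krt5. No paired analysis was possible because the DSS, DNBS and control mice share no replicate number.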
